A study of Mus musculus with 12 samples.

Results

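The 9 genes described here encode receptors for the colony-stimulating factors and for the cytokines that act on blood progenitors, together with 1 of the ligands. They are Csf1r, Csf2ra, Csf2rb, Csf2rb2, Csf3r, Il3ra, Kit and Flt3, and the ligand gene Csf1. They were listed by name, with no cutoff on a measured value, but earlier results of these data were known. The series held 17476 genes listed in either of its tables, and all 9 of 9 were found in both. RNA-seq had been done on spleen cells of wild-type (WT) mice around cryo-thermal therapy (CTT), in which a tumor is frozen and then heated.

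The libraries formed 4 groups of 3. Cells labelled neutrophils came from tumor-bearing mice without therapy (control) and from mice 12 h after CTT, captured in both cases with a PE-coupled anti-Ly6G antibody. Cells labelled monocytes were captured with PE-coupled anti-CCR2 5 days after CTT, from mice without or with anti-Ly6G treatment, an antibody used to deplete neutrophils. Both monocyte groups had thus received CTT, and monocytes of untreated mice were not analysed here. The labels call the libraries biological replicates but do not say how many mice each held, nor the tumor, age or sex, so the p-values below speak of the spread among libraries, which may be technical.

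Colony-stimulating factors are secreted proteins that keep myeloid cells alive and drive their growth and maturation. Csf1r, the receptor of the ligands CSF1 (M-CSF) and IL-34, is a receptor tyrosine kinase of monocytes and macrophages, and Kit and Flt3, the receptors of stem cell factor and of FLT3 ligand, belong to the same kinase class and act on progenitors, mast cells (Kit) and dendritic cells (Flt3). Csf3r, the receptor of G-CSF, acts as a homodimer and is typical of the neutrophil lineage. The receptors of GM-CSF, IL-3 and IL-5 each pair a private alpha chain, such as Csf2ra for GM-CSF or Il3ra for IL-3, with the shared beta chain encoded by Csf2rb. Mice have an additional beta chain, Csf2rb2, which serves IL-3 alone. The cytokine receptors signal through JAK kinases and STAT factors.

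On RefSeq GRCm38.p6 (mm10) all 9 are protein coding genes. Csf1r (Entrez ID 12978) was placed on chromosome 18 from 61105572 to 61131139 and Csf1 (12977) on chromosome 3 from 107741048 to 107760469. Csf3r (12986) lies on chromosome 4 from 126023441 to 126044975, Csf2ra (12982) on chromosome 19 from 61217191 to 61228461 and Il3ra (16188) on chromosome 14 from 14345912 to 14355493. The beta chain genes are neighbours on chromosome 15, Csf2rb2 (12984) from 78282507 to 78305721 on the minus strand and Csf2rb (12983) from 78325800 to 78351001 on the plus strand. The kinase genes Kit (16590) and Flt3 (14255) share chromosome 5, from 75574987 to 75656722 and from 147330741 to 147400489.

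The beta chain genes are near copies, and reads that match both could have been lost or exchanged in counting. In GENCODE vM21 their coding sequences of 2691 bases (Csf2rb) and 2637 bases (Csf2rb2) aligned over 2631 bases, of which 2505 (95.2%) were identical. Windows of 150 bases along the Csf2rb transcript occurred letter for letter in the Csf2rb2 transcript in 3.47% of cases, windows of 100 bases in 6.96% and windows of 50 bases in 18.4%. The stretch below holds the longest identical run of 242 bases with its flanks, 292 bases at coding positions 2058 to 2349 of each gene. The stretch is shown because a read wholly within the identical run has no gene of its own. This stretch lies in exon 15 of Csf2rb (chr15:78348552-78348843, GRCm38, plus strand) and in exon 14 of Csf2rb2 (chr15:78284605-78284896, minus strand). The 5 bases that differ, all in its flanks, are in capitals.

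Csf2rb: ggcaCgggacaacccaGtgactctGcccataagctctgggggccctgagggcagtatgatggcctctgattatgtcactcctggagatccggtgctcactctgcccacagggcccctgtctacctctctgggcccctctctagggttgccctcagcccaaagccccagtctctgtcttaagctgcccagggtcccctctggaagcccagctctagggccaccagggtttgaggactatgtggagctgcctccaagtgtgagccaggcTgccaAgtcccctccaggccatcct
Csf2rb2: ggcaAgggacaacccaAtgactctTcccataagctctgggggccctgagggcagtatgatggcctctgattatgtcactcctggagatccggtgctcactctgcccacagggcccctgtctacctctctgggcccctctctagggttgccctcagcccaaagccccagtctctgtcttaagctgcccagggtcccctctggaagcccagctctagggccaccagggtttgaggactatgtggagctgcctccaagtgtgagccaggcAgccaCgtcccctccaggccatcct

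For each promoter entry, the 250 bases ending at the base before its start site were searched on both strands. The motifs were GAGGAA, a core bound by the myeloid factor PU.1, TTCNNNGAA, the palindrome bound by STAT5, and TTNNGNAA, a C/EBP type site. Of the 9 genes, 7 were searched through their entries in the RefSeq promoter table (GRCm38.p6). Csf1r and Csf2rb were not searched, so nothing is said here of their promoters. Among all 32851 promoters of that table, 23.3% held GAGGAA, 7.02% TTCNNNGAA and 36.8% TTNNGNAA in the same window. Those of Csf2ra (chr19:61228419-61228668, minus strand), Csf2rb2 (chr15:78305722-78305971, minus strand) and Csf3r (chr4:126024409-126024658, plus strand) are shown because Csf2ra and Csf2rb2 moved together in the monocytes and Csf3r is the neutrophil lineage receptor, with every match in capitals.

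Csf2ra: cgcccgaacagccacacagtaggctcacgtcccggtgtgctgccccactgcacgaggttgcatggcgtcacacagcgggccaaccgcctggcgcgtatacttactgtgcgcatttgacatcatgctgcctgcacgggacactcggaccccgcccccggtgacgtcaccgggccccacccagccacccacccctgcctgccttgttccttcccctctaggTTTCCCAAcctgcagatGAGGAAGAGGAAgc
Csf2rb2: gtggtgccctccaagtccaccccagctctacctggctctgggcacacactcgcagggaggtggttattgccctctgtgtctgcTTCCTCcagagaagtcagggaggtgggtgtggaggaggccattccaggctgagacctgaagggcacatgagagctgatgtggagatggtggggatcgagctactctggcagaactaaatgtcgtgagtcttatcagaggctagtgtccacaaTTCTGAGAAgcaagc
Csf3r: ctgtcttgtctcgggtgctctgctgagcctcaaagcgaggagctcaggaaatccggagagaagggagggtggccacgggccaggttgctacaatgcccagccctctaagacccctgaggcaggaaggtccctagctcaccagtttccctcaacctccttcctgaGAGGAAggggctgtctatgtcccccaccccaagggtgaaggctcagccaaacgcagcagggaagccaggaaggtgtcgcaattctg

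The Csf2ra window held GAGGAA at −14 to −9 and again at −8 to −3, counted from the start site. TTNNGNAA matched there on the opposite strand at −31 to −24. In the Csf2rb2 window, GAGGAA matched on the opposite strand at −167 to −162 and TTCNNNGAA at −15 to −7. GAGGAA also stood at −86 to −81 of Csf3r and at −223 to −218 of Kit (−227 to −222 from its other start site). TTNNGNAA matched on the opposite strand at −134 to −127 of Il3ra. The windows of Csf1 and Flt3 held none of the 3 motifs. Some start sites lie inside the gene spans given above. The Csf3r window is wholly within its gene, as is that of Il3ra (chr14:14346245-14346494, plus strand). The Csf2ra window overlaps its gene, with all its matches in the overlapping part. A few bases of the window at the other Kit start site also lie in the gene. These matches are letters in a window, with no measurement of binding.

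The neutrophil libraries held 30942849 to 34935547 counts and the monocyte libraries 31865982 to 35956571, and the lowest count of any of the 9 genes in a library was 424, for Il3ra. Control replicate 1 of the neutrophils stood apart: across genes the Pearson r of its log2 CPM with those of the other 5 was 0.916 to 0.958, its erythroid markers summed to 11041 CPM (264.5 to 1823 in the other 5) and its cell cycle genes to 4629 CPM (780.2 to 1181). CPM are counts scaled to the library total and by TMM. The labelled cell types were mixed by their markers. The 11 neutrophil markers summed to 3699 to 5527 CPM in control neutrophils, 6985 to 12005 after CTT, 4057 to 5949 in CTT monocytes and 12533 to 17304 in anti-Ly6G monocytes, and Ly6g itself, the antigen of the neutrophil selection, stood at 11.8 ± 2.66 CPM (SD, n = 3) in control neutrophils. The 7 B cell markers summed to 2527 to 6256 CPM in the control neutrophils. In bulk libraries of this kind, fewer cells of a type and less RNA per cell cannot be told apart.

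**Figure D1:**
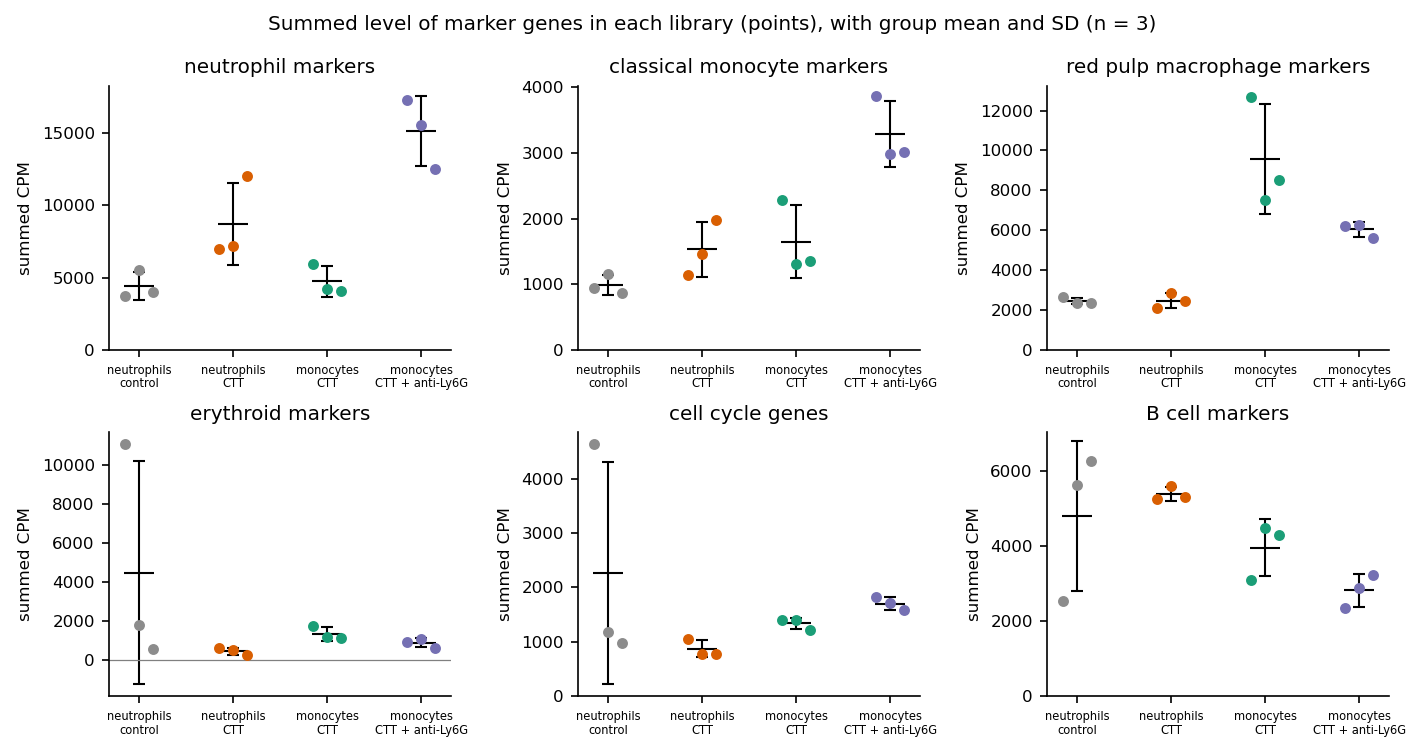
Summed CPM of marker genes of 6 lists in each library (points), with the group mean and SD (n = 3); SD bars of the control neutrophils reach below 0 for erythroid markers because replicate 1 is so high. Neutrophil and classical monocyte markers are highest in the anti-Ly6G monocytes, red pulp macrophage markers in the CTT monocytes, and erythroid markers and cell cycle genes in control neutrophil replicate 1.

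**Figure D2:**
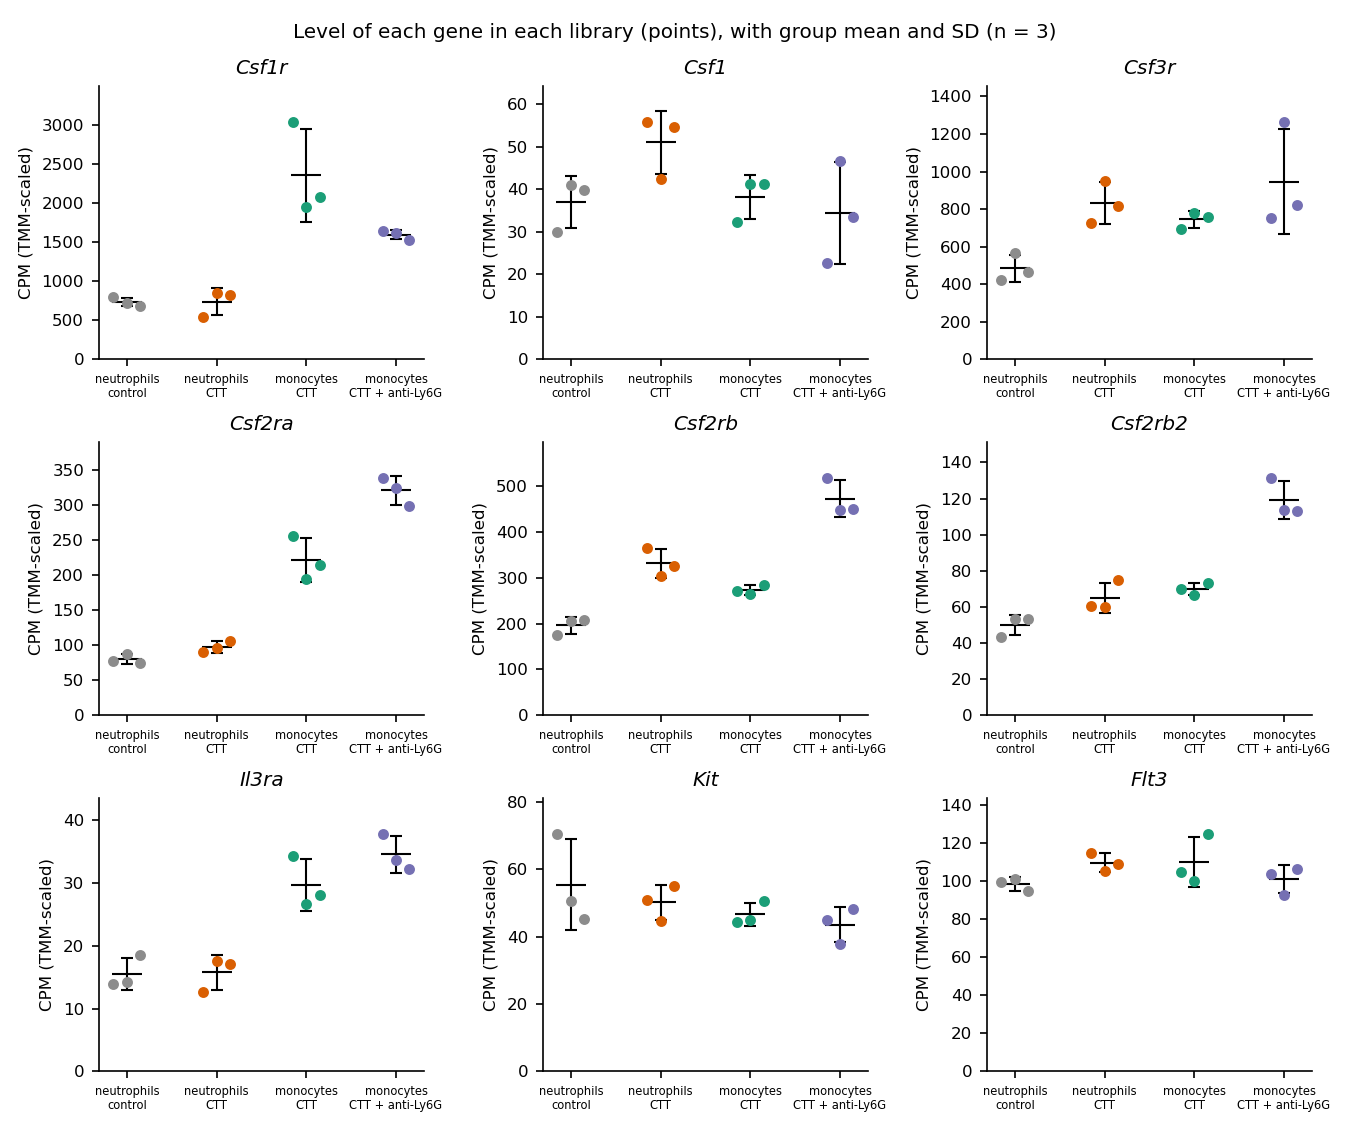
CPM (TMM-scaled, linear axes from 0) of the 9 genes in the 12 libraries, with 1 point per library and a bar for the group mean with its SD (n = 3). Csf1r is highest in the CTT monocytes with 1 library at 3038 CPM, Csf2rb is higher in the second group of each cell type with no overlap, and the groups of Kit overlap throughout.

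Of the monocyte growth factor receptor and its ligand, Csf1r fell with anti-Ly6G in monocytes and showed no consistent direction after CTT in neutrophils. In CTT monocytes Csf1r stood at 3038, 1947 and 2073 CPM in replicates 1 to 3, and with anti-Ly6G at 1638, 1615 and 1524 CPM. Every anti-Ly6G library lay below every CTT library, and replicate 1 of the CTT group was far above the other libraries. The log2 fold change was −0.56 (SE 0.15, adjusted p = 0.0363 in edgeR), a fold of 0.677. Without that high library the difference was −0.34 (adjusted p = 0.00276). The call was lost when CTT replicate 3 (adjusted p = 0.0565) or anti-Ly6G replicate 1, 2 or 3 (adjusted p = 0.102, 0.0961 and 0.105) was left out, with the direction kept in all 6 such fits.

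Red pulp macrophage transcripts moved in the same direction as Csf1r. These resident spleen macrophages carry Csf1r themselves. Of the 8 markers of the list 6 fell, 0 rose and 2 did not pass, where 5.12% of all tested genes fell and 10.2% rose. The sum of the 8 went from 12702, 7513 and 8508 CPM to 6226, 6278 and 5624 CPM. The library with the highest Csf1r, CTT replicate 1, also had the highest sum. Within the CTT group that library was also highest for other lists, such as neutrophil (5949 CPM), classical monocyte (2286 CPM) and erythroid markers (1754 CPM). For B cell markers it was lowest (3087 CPM). Of 6 classical monocyte markers, by contrast, 5 rose, and their sum went from 1312 to 2286 CPM to 2991 to 3870 CPM. Ccr2, the antigen of the monocyte selection, was among those that rose (log2 fold change 1.25, adjusted p = 0.000968 in edgeR). Of 6 nonclassical monocyte markers 3 rose and 2 fell, and of 7 B cell markers 0 rose and 1 fell. The part of any of these cell types in the change of Csf1r was not tested.

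In neutrophils Csf1r read 792, 717 and 689 CPM in control and 542, 845 and 826 CPM after CTT. The control values lay inside the range of the CTT values, whose replicate 1 was the lowest of the 6. The log2 fold change was 0.01 (SE 0.19, adjusted p = 0.984 in edgeR), and its sign turned in several other settings. Csf1, the ligand, was read at 29.9, 41.1 and 39.9 CPM in control and 55.9, 42.4 and 54.7 CPM after CTT. The groups did not overlap, by a narrow margin that was not there on the deposited FPKM, and the difference of 0.46 (SE 0.18) did not pass (adjusted p = 0.347 in edgeR). In monocytes Csf1 read 32.3, 41.2 and 41.3 CPM with CTT and 22.7, 46.7 and 33.5 CPM with anti-Ly6G, where the widest spread of any group lay within the antibody group (log2 fold change −0.16, SE 0.22, adjusted p = 0.680 in edgeR). Without anti-Ly6G replicate 1 the sign of that value turned, to 0.07.

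Csf3r, the G-CSF receptor, was higher in every CTT neutrophil library than in any control library, but the difference did not pass the test over all genes. Control libraries read 424, 565 and 465 CPM and CTT libraries 727, 951 and 817 CPM, a mean of 485 ± 72.2 against 831 ± 112 CPM. The log2 fold change was 0.78 (SE 0.16, adjusted p = 0.121 in edgeR), a fold of 1.71. Without control replicate 1 the difference was 0.70 and passed (adjusted p = 0.0478), and DESeq2 on all libraries gave 0.77 (adjusted p = 0.00308). The 11 neutrophil markers were all higher after CTT on average, with a median log2 fold change of 1.05. Of these 2 rose (Mmp8 and Retnlg), where 0.567% of all tested genes rose. The part of neutrophil content in Csf3r was not tested.

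In monocytes Csf3r stood at 697, 780 and 760 CPM with CTT and at 753, 1266 and 821 CPM with anti-Ly6G. The groups overlapped, and replicate 2 of the antibody group was far above the others. The log2 fold change was 0.34 (SE 0.17, adjusted p = 0.209 in edgeR), and 0.08 without that library. In the same libraries all 11 neutrophil markers rose, beside 10.2% of all tested genes. Their median log2 fold change was 1.74, with Ly6g among them (13.6 ± 2.26 to 56.1 ± 7.19 CPM). The sum of these markers was 17304 CPM in replicate 1 of the antibody group and 15562 CPM in replicate 2, which had the highest Csf3r. The part of neutrophil content in these Csf3r values was not tested.

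Both beta chains and the GM-CSF alpha chain rose in monocytes, and the IL-3 alpha chain did not pass the test. Csf2rb, the shared beta chain, read 272, 264 and 284 CPM with CTT and 517, 447 and 450 CPM with anti-Ly6G. All 3 antibody libraries lay well above the others, and the mean went from 273 ± 10.1 to 471 ± 39.9 CPM, a rise of 0.79 on the log2 scale (SE 0.07, adjusted p = 0.000381 in edgeR). Csf2rb2, the IL-3 beta chain, went from 70.2, 66.9 and 73.3 CPM to 132, 114 and 113 CPM, a rise of 0.77 on the log2 scale (SE 0.08, adjusted p = 0.000515 in edgeR). The beta chains thus moved by nearly equal amounts, 1.73-fold and 1.70-fold. Both calls held in all 18 other settings tried, and with their reads summed as 1 gene the log2 fold change was 0.78. In the same libraries all 11 neutrophil markers and 5 of the 6 classical monocyte markers rose, beside 10.2% of all tested genes. The part of these cell types in the rise of the chains was not tested.

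Csf2ra, the GM-CSF alpha chain, read 256, 194 and 215 CPM with CTT and 339, 324 and 299 CPM with anti-Ly6G. Again no library of one group reached into the other. The log2 fold change was 0.53 (SE 0.10, adjusted p = 0.00909 in edgeR), and the call was lost without CTT replicate 3 (0.51, adjusted p = 0.0523). Il3ra, the IL-3 alpha chain, did not pass: it read 34.3, 26.7 and 28.1 CPM with CTT and 37.9, 33.6 and 32.2 CPM with the antibody (log2 fold change 0.22, SE 0.11, adjusted p = 0.216 in edgeR). The groups of Il3ra overlapped through CTT replicate 1 alone, without which the difference was 0.34 (adjusted p = 0.0316).

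In neutrophils 12 h after CTT the same chains were higher on average, and none passed. Csf2rb went from 175, 206 and 208 CPM to 364, 303 and 325 CPM, so that the lowest CTT library stood well above the highest control. Its log2 fold change of 0.75 (SE 0.13) had an adjusted p = 0.0797 in edgeR. It passed without control replicate 1 (0.68, adjusted p = 0.0152) and in DESeq2 (0.74, adjusted p = 0.000436). As for Csf3r, the part of the higher neutrophil markers in this difference was not tested. For Csf2rb2 the controls read 43.5, 53.2 and 53.2 CPM and the CTT libraries 60.8, 59.8 and 74.7 CPM, also without overlap (0.38, SE 0.15, adjusted p = 0.348 in edgeR).

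Csf2ra read 78.2, 87.7 and 74.9 CPM in control and 90.3, 96.0 and 107 CPM after CTT. These groups were separated by a narrow gap (log2 fold change 0.28, SE 0.12, adjusted p = 0.359 in edgeR). Il3ra, at 13.9, 14.3 and 18.5 CPM in control and 12.6, 17.7 and 17.1 CPM after CTT, overlapped throughout (0.02, SE 0.20, adjusted p = 0.959 in edgeR, with a sign that turned in other settings).

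Basophils and mast cells also carry the IL-3 receptor chains, and Kit in the case of mast cells. Of their 6 markers 1 rose in each comparison, beside 0.567% of all tested genes in neutrophils and 10.2% in monocytes. It was Hdc, the histamine-forming enzyme, which neutrophils also express. The other 5 did not pass in either comparison, and Mcpt8, Cpa3, Ms4a2 and Fcer1a stood at means below 10 CPM in all groups. Eosinophils also carry the shared beta chain. Of their 5 markers 1 fell in monocytes, where 5.12% of all tested genes fell. It was the chemokine receptor gene Ccr3 (318 ± 102 to 187 ± 5.37 CPM), while Siglecf, Prg2, Epx and Il5ra overlapped between the groups and did not pass. Ccr3 also made up most of the sum of the 5, and the part of eosinophils in the beta chain values was not tested.

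The progenitor receptors Kit and Flt3 did not pass the test in either comparison. Kit, the stem cell factor receptor, read 70.6, 50.7 and 45.1 CPM in control neutrophils and 50.8, 44.7 and 55.0 CPM after CTT. Its highest value was in control replicate 1, the library whose stem and progenitor markers summed to 144 CPM against 40.9 to 59.3 CPM in the other 5. Among these markers Myb (39.0 ± 21.7 CPM), Adgrg1 (27.2 ± 21.6) and Egfl7 (7.70 ± 10.3) spread widely in control, and Cd34 (3.16 ± 1.12) and Meis1 (3.23 ± 0.23) did not. The same library had the highest erythroid (11041 CPM) and cell cycle sums (4629 CPM), and the part of any of these in Kit was not tested. The log2 fold change of Kit was −0.14 (SE 0.19, adjusted p = 0.721 in edgeR), and 0.07 without control replicate 1. In monocytes Kit stood at 44.5, 44.9 and 50.5 CPM with CTT and at 44.9, 37.8 and 48.1 CPM with anti-Ly6G (−0.10, SE 0.10, adjusted p = 0.550 in edgeR), with groups that overlapped.

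Flt3, the receptor of dendritic cells and their precursors, read 99.3, 101 and 94.6 CPM in control neutrophils and 115, 105 and 109 CPM after CTT. The groups were close, separate on this scale but overlapping on the deposited FPKM (log2 fold change 0.16, SE 0.10, adjusted p = 0.471 in edgeR). In monocytes Flt3 read 105, 99.9 and 125 CPM with CTT and 104, 92.8 and 106 CPM with the antibody (−0.12, SE 0.09, adjusted p = 0.422 in edgeR), where the groups overlapped. Conventional dendritic cell markers summed to 361.5 to 601.8 CPM over the 12 libraries. Of the 8 markers 1 fell in monocytes (Cadm1), where 5.12% of all tested genes fell. Of the 8 stem and progenitor markers Hoxa9, Hlf and Mecom stood at or below a mean of 0.813 CPM in every group, while Myb, the most abundant, stood at means of 17.9 to 39.0 CPM. In monocytes all 8 had log2 fold changes above 0 (median 0.43), 3 of them without overlap (Hoxa9, Hlf and Adgrg1). Of all tested genes 20.6% were higher without overlap there. The smallest adjusted p among the 8 markers was 0.0777 in edgeR. An unadjusted p below 0.05 was seen in 2 of the 8, beside 4118 of 13294 among all genes.

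Counted over the 9 genes, 0 rose and 0 fell in neutrophils in edgeR's quasi-likelihood test, where 0.567% of all tested genes rose and 0% fell. At an unadjusted p below 0.05 stood 4 of the 9, Csf2rb, Csf3r, Csf1 and Csf2rb2, against 1830 of all 13058 tested genes, and DESeq2 called Csf2rb and Csf3r. All CTT values lay above all control values in 6 of the 9 (Csf2ra, Csf2rb, Csf2rb2, Csf3r, Csf1 and Flt3), against 13.6% of all tested genes, and below them in 0, against 11% of all. These counts are on TMM-scaled CPM. On the deposited FPKM the groups of Csf1 and Flt3 overlapped, which left 4 of the 9. The median log2 fold change of the 9 was 0.28, beside −0.02 over all genes. In monocytes 3 of the 9 rose, against 10.2% of all genes, 1 fell, against 5.12%, and 5 did not pass. The groups did not overlap in the same 4 genes, 3 higher (20.6% of all genes) and 1 lower (15.4%). The median of the 9 was 0.22, beside 0.00 over all genes.

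**Figure D3:**
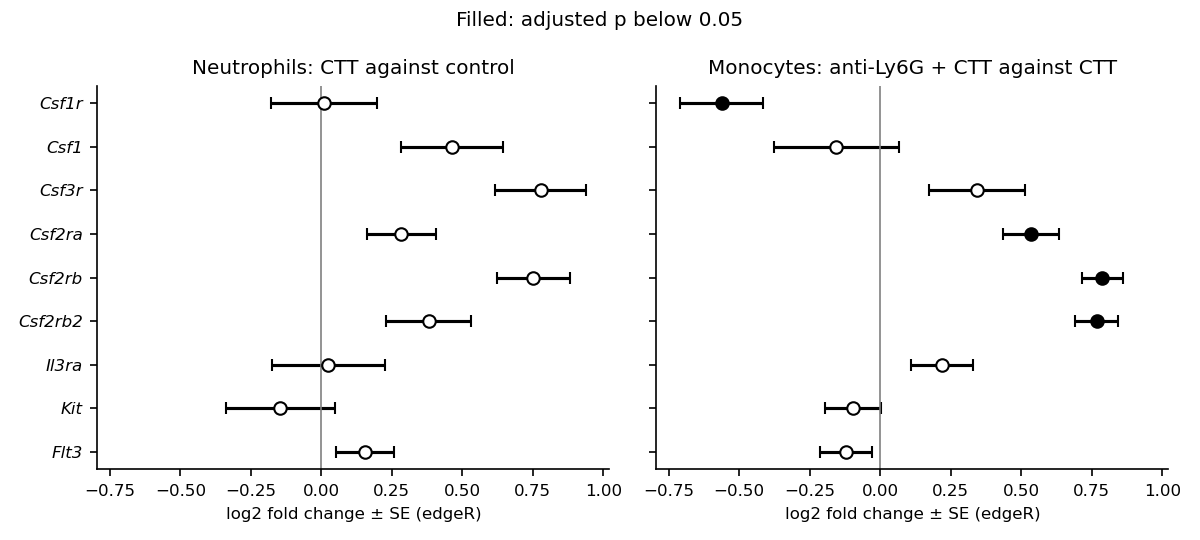
log2 fold change of each gene with its approximate SE (edgeR, 3 libraries against 3) after CTT in neutrophils and with anti-Ly6G on top of CTT in monocytes, filled where the adjusted p is below 0.05. In monocytes Csf2rb, Csf2rb2 and Csf2ra are filled to the right of 0 and Csf1r to the left, and no point is filled in neutrophils, where Csf3r and Csf2rb lie farthest right at 0.78 and 0.75.

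Ratios within a library do not depend on how libraries are scaled. The ratio of Csf1r to Csf3r, a macrophage lineage receptor over a neutrophil lineage receptor, was lower in the second group of both comparisons. On the FPKM scale, which divides counts by library total and gene length, it was 1.93, 1.32 and 1.53 in control neutrophils and 0.772, 0.920 and 1.05 after CTT. By GENCODE lengths these ratios were 0.794 to 1.17 and 0.466 to 0.632. Every CTT library lay below every control library, and the log2 ratio went from 0.65 ± 0.28 to −0.14 ± 0.22 (SD, n = 3). In monocytes it was 4.51, 2.59 and 2.82 with CTT and 2.25, 1.32 and 1.92 with anti-Ly6G, also without overlap, with a log2 ratio of 1.68 ± 0.43 against 0.84 ± 0.39. The difference in log2 ratio was −0.80 in neutrophils and −0.84 in monocytes, each with p = 0.1 in a two-sided exact permutation test, the smallest that 3 libraries against 3 can give over 20 splits.

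Further ratios were looked at after their values had been seen. The ratio of Csf2rb to Csf2rb2 was nearly constant in 9 libraries, at 3.76 to 3.91, and higher in the CTT neutrophils alone, at 5.83, 4.93 and 4.23 (2.52 to 2.62 and 2.84 to 3.91 by GENCODE lengths). The difference in log2 ratio was 0.37 in neutrophils (exact permutation p = 0.1) and 0.02 in monocytes (exact permutation p = 0.3). Whether shared reads of the near copies bear on this ratio was not tested. The ratio of Csf2rb to the alpha chain Csf2ra was 6.13, 6.45 and 7.62 in control neutrophils and 11.1, 8.65 and 8.35 after CTT. These levels rest on the long Csf2ra length behind the deposited FPKM (13359 bases), and by GENCODE lengths they were 0.883 to 1.10 and 1.20 to 1.59. The log2 difference, which does not depend on length, was 0.47, and in monocytes the log2 difference was 0.24 (exact permutation p = 0.1 each). Over the 6 comparisons of ratios the Benjamini-Hochberg adjusted values were 0.12 for 5 and 0.3 for Csf2rb to Csf2rb2 in monocytes.

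**Figure D4:**
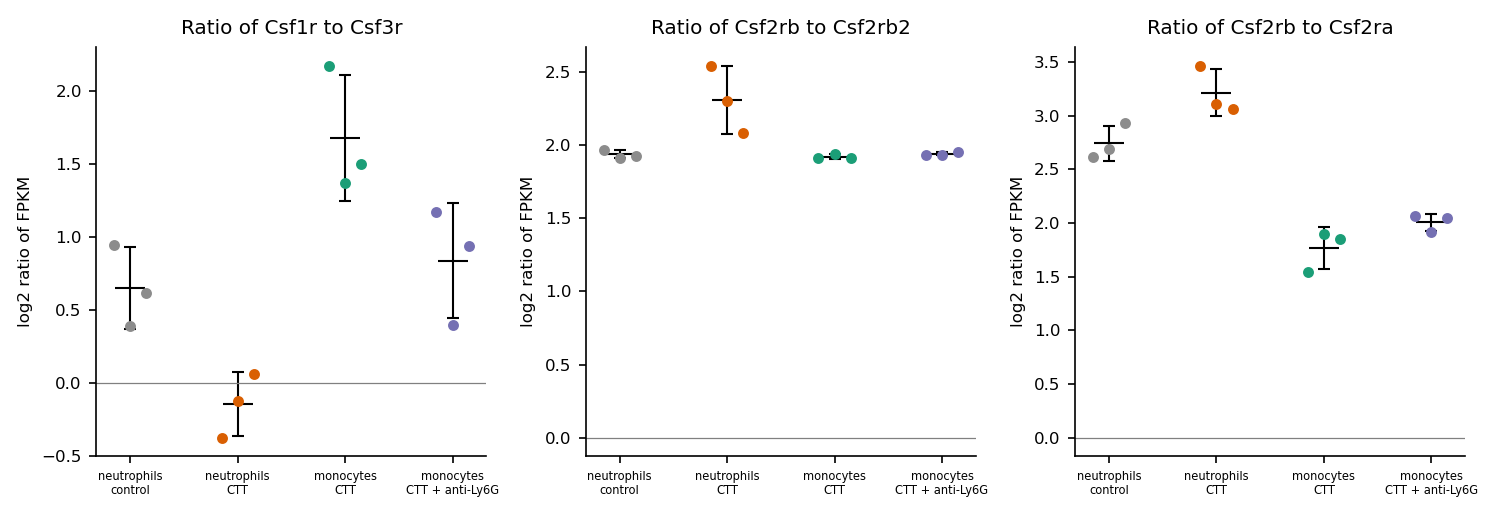
log2 of the ratio of deposited FPKM of 2 genes within each library (points), with the group mean and SD (n = 3). The ratio of Csf1r to Csf3r is lower in the second group of each cell type, and the ratio of Csf2rb to Csf2rb2 stands near 1.9 on the log2 scale in all groups but the CTT neutrophils.

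Levels per gene length can be set side by side between genes. By mean deposited FPKM, Csf1r led in control neutrophils at 193 ± 11.7, followed by Csf3r at 123 ± 20.1 and Csf2rb at 41.1 ± 4.44, while the other 6 stood between 6.13 (Csf2ra) and 16.1 (Flt3). After CTT Csf3r (203 ± 27.0) stood beside Csf1r (186 ± 39.8) with overlapping ranges. In CTT monocytes Csf1r reached 612 ± 147 FPKM against 188 ± 13.1 for Csf3r and 56.6 ± 2.24 for Csf2rb. The FPKM of Csf2ra rests on a length of 13359 bases, longer than the gene itself on the RefSeq map and 4.65 times its exons in GENCODE vM21 (2871 bases). By the GENCODE length its means would be 28.5, 33.3, 77.8 and 111 FPKM in control neutrophils, CTT neutrophils, CTT monocytes and anti-Ly6G monocytes, and it would rank above Flt3 in all 4 and above Csf2rb in all but the CTT neutrophils (27.6, 44.6, 37.9 and 64.1 FPKM for Csf2rb). For the other 8 genes the ratio of lengths was 0.528 to 1.11. By GENCODE lengths Csf3r would stand beside Csf1r in control neutrophils, at 137 ± 22.3 against 129 ± 7.85 FPKM, and above it after CTT, at 226 ± 30.0 against 125 ± 26.7 FPKM. In CTT monocytes Csf1r would still lead Csf3r, at 411 ± 98.7 against 209 ± 14.6 FPKM. The order of the genes within a group thus rests on the lengths used, while differences between groups for 1 gene do not.

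Across the 4 groups, the order of the FPKM levels differed between the genes, though neutrophils and monocytes came from separate tables with different selection and time and were not tested against each other. Csf1r ran from CTT monocytes over anti-Ly6G monocytes (407 ± 12.5) down to both neutrophil groups, which overlapped. Csf2ra and Csf2rb were highest in anti-Ly6G monocytes, and no neighbours in their order overlapped, with Csf2rb at 95.6, 66.6 (CTT neutrophils), 56.6 and 41.1 FPKM. Csf2rb2 had the same top and bottom groups at 24.9 and 10.8 FPKM, with CTT monocytes and CTT neutrophils overlapping between them. Csf3r was lowest in control neutrophils, and the other 3 groups overlapped from one to the next (188 to 234 FPKM). Il3ra stood at 21.8 and 19.1 FPKM in the monocyte groups and 10.1 and 9.86 in the neutrophil groups, with overlap only within a cell type. For Csf1 (7.44 to 10.9 FPKM), Kit (8.34 to 10.9) and Flt3 (16.0 to 17.8) all neighbours overlapped.

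The genes with the pattern most like that of Csf1r over the 12 libraries, by Pearson r of log2(FPKM + 1) among 6471 genes, were Atp8a1, a phospholipid flippase (r = 0.996), Rxra, a nuclear receptor (0.996), and C1qc, a chain of complement C1q (0.995). For Csf3r they were Sirpb1b (0.936), Clec7a, the beta-glucan receptor Dectin-1 (0.928), and Fgl2 (0.924). Csf1r and Csf3r correlated with each other at 0.378. Among 10917 genes, Kit was most like Xpo4 (0.936), Rpp40 (0.914) and Urb2 (0.909), and Flt3 was most like Taf1b (0.794), Fgfr1 (0.722) and Cwc27 (0.711). The 12 points include the step between the separately selected cell types and control replicate 1, so these values are descriptions.

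The other genes of the pathway in neutrophils are set beside the 0.567% of all tested genes that rose and the 0% that fell. Of 8 ligand genes 4 were tested and 0 rose or fell in edgeR, with the smallest p at Csf1, given above, and at an unadjusted p below 0.05 it stood alone, with 0 called by DESeq2. The ligand genes Csf2, Csf3, Il5 and Il34 stood at means below 1 CPM in all 4 groups. Of 19 genes of proximal signalling 0 passed in edgeR or in DESeq2, and 5 had an unadjusted p below 0.05, beside 1830 of 13058 among all genes. The smallest p there was that of Fes, a tyrosine kinase downstream of the shared beta chain, at 0.43 on the log2 scale (SE 0.12, adjusted p = 0.251 in edgeR). Of 16 feedback and target genes 2 rose and 0 fell: Socs3, which dampens STAT3 signals (129 ± 14.5 to 262 ± 26.7 CPM, 1.02, SE 0.14, adjusted p = 0.0361 in edgeR), and the cytokine gene Osm (71.4 ± 6.88 to 141 ± 10.9 CPM, 0.98, SE 0.12, adjusted p = 0.0306 in edgeR). The median of this list was 0.41, beside 0.28 for the 9 receptors and ligand.

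Of 15 other cytokine receptor genes 1 rose in neutrophils, Il13ra1, a chain of the IL-4 and IL-13 receptors (46.0 ± 4.82 to 101 ± 8.91 CPM, log2 fold change 1.14, SE 0.13, adjusted p = 0.0296 in edgeR), and 0 fell. When any library but control replicate 1 was left out, 0 genes of the whole table passed in edgeR, these 3 included (adjusted p-values from 0.0832 to 0.203), while the log2 fold changes stayed at 0.96 to 1.10 for Socs3, 0.94 to 1.06 for Osm and 1.08 to 1.23 for Il13ra1. The calls of all 3 were also lost with the replicate number as a block and in limma-trend without a filter (adjusted p = 0.111, 0.0767 and 0.0869). That of Socs3 was lost in addition with library totals (adjusted p = 0.0587), upper quartile scaling (adjusted p = 0.0639) and the other limma-trend fits (adjusted p = 0.0573 and 0.0548).

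In monocytes with anti-Ly6G, 2 of 19 proximal signalling genes rose and 0 fell, a share near the 10.2% of all tested genes that rose. They were Stat3, the main STAT of the G-CSF receptor, which went from 242 ± 3.01 to 315 ± 2.62 CPM (log2 fold change 0.38, SE 0.05, adjusted p = 0.00207 in edgeR), and Fes (0.53, SE 0.10, adjusted p = 0.00952 in edgeR). Fes was lost without CTT replicate 3 (adjusted p = 0.0533), and leaving out CTT replicate 1 gave 4 genes that rose. Of 3 tested ligand genes 0 rose or fell in edgeR, and Kitl, stem cell factor, had the smallest p (−0.56, SE 0.20, adjusted p = 0.1 in edgeR). It was the only ligand gene with an unadjusted p below 0.05, and DESeq2 called it (adjusted p = 0.0393).

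Of 16 feedback and target genes 3 rose in monocytes and 1 fell, with a median of 0.06, where 10.2% of all genes rose and 5.12% fell. The 1 that fell is near that background. Osm rose from 95.8 ± 2.10 to 171 ± 15.5 CPM (log2 fold change 0.83, SE 0.07, adjusted p = 0.000339 in edgeR), the cyclin gene Ccnd3 by 0.80 (SE 0.09) and Id1, an inhibitor of differentiation factors, by 0.85 (SE 0.17). Myc fell by 0.48 on the log2 scale (adjusted p = 0.0421 in edgeR), a call lost when any library but CTT replicate 1 was left out. With all libraries the Myc call was also lost in limma-trend. Its adjusted p was 0.0523 on log2(FPKM + 1), 0.0521 on log2(FPKM + 0.1) and 0.123 without a filter. Id1 was lost without anti-Ly6G replicate 2 (adjusted p = 0.0534). Without CTT replicate 1, 3 of the list fell.

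Of 15 other cytokine receptors 5 rose in monocytes and 1 fell, where again 10.2% of all genes rose and 5.12% fell, so that the 1 that fell is near the background. Those of smallest p were Ifngr2, an interferon gamma receptor chain (log2 fold change 0.38, SE 0.06), Il17ra, the common IL-17 receptor chain (0.33, SE 0.06), Il4ra (0.46, SE 0.08) and Il6ra (0.45, SE 0.10), with edgeR adjusted p-values of 0.00439, 0.00594, 0.00615 and 0.0187. Il13ra1, which rose by 0.47 (SE 0.11, adjusted p = 0.0213 in edgeR), and Epor, the erythropoietin receptor, which fell by 0.71 on the log2 scale (SE 0.17, adjusted p = 0.0240 in edgeR), complete the 6 and are named after their values were seen. These differences were smaller than those of the beta chains. Il6ra was lost without CTT replicate 2 or 3 or anti-Ly6G replicate 1 or 2 (adjusted p-values of 0.0525 to 0.0888). The number that rose went to 3 in those 4 fits, and the number that fell went to 4 without CTT replicate 1 and to 0 without anti-Ly6G replicate 2 or 3.

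**Figure D5:**
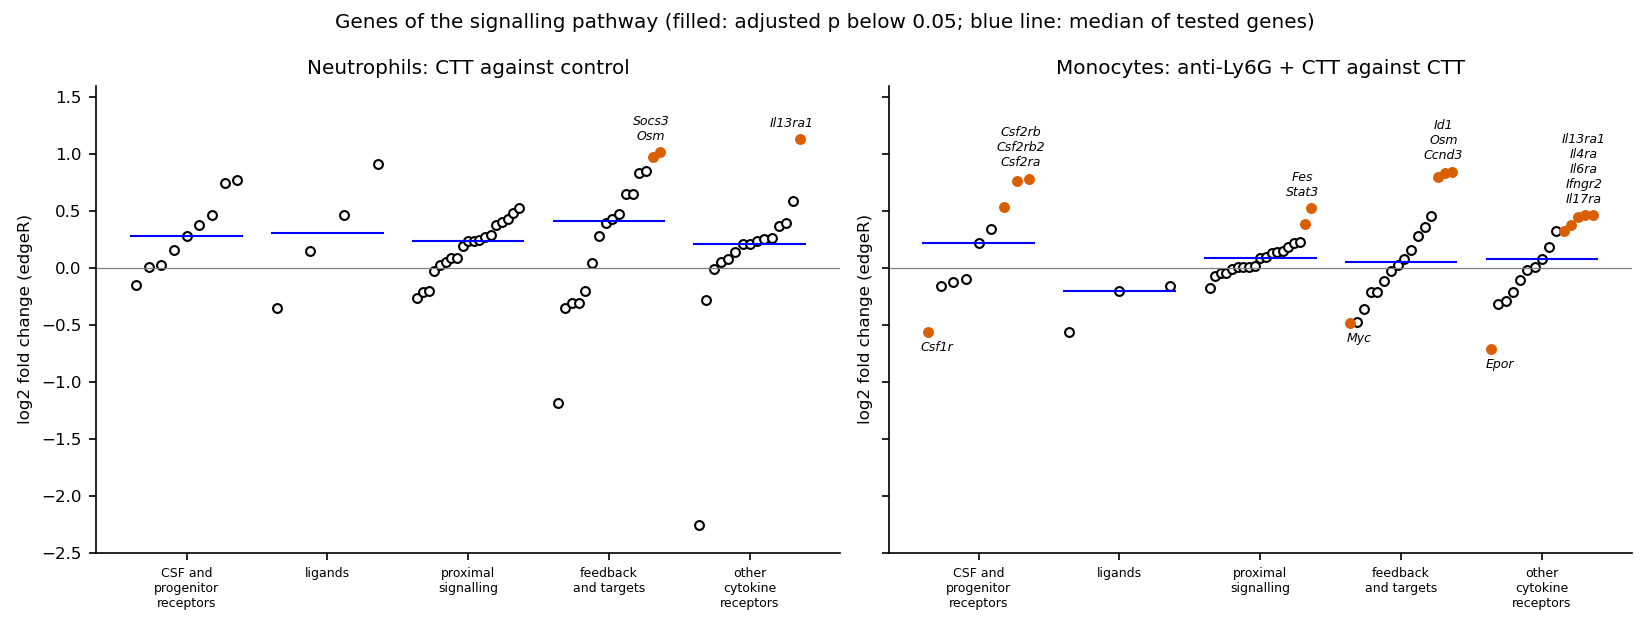
log2 fold changes (edgeR) of the tested genes of 5 lists, 1 point per gene, sorted within each list, filled and named where the adjusted p is below 0.05, with a blue line at the list's median. In neutrophils Socs3, Osm and Il13ra1 are the only filled points, and in monocytes 16 of the points over the 5 lists are filled, with Csf1r, Myc and Epor below 0.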

How the data were processed

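RNA-seq libraries (VAHTS Universal V6 kit, as the labels' protocols say) came from 12 spleen cell samples in 4 groups of 3. The authors deposited whole-number counts per gene, 1 table for each cell type. The submitters' processing notes name HISAT2, HTSeq and mm10. Versions, annotation and the use of strand were not given in the sources used here. Reads of overlapping or near-identical genes are therefore uncertain. FPKM values, also deposited, were found to be counts divided by a gene length and the library total. Levels between genes, ratios and some alternatives rest on them. The number of value columns left out was 0.

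The counts of each cell type were tested separately with edgeR 4.0.16 (R 4.3.3), using filterByExpr (13058 and 13294 genes kept), TMM scaling, the quasi-likelihood F test (two-sided) and Benjamini-Hochberg adjustment over all tested genes, with a threshold of 0.05. The SE is the absolute log2 fold change over the square root of F. The scripts were tested on simulated counts. Alternatives were other scalings and filters, DESeq2 1.42.0, voom and trend fits in limma 3.58.1, with log2 of FPKM plus 1 or 0.1 in the latter, a block on the replicate number, each library left out, and the beta chain counts summed.

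The 9 genes, the pathway and marker lists and the tests were chosen with earlier results of these data known. All 9 genes are named. Of each pathway list, every gene past the threshold is named if 4 or fewer, otherwise the 4 of smallest p, and the gene of smallest p where none passes. The 3 genes of most similar pattern were ranked among those with a group mean of at least 10 FPKM for Csf1r and Csf3r, and at least 1 FPKM for Kit and Flt3.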

Additional observations from a re-analysis of the deposited data

How the results depend on the processing

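Each comparison was recomputed in 18 other settings. In monocytes the rises of Csf2rb and Csf2rb2 held in all of them. Csf1r no longer passed in limma-trend on log2(FPKM + 1) without a filter (−0.56, adjusted p = 0.0991, 0 of the 9 fell), and over the fits that leave out 1 library it ranged from −0.69 to −0.34, with 0 to 1 of the 9 that fell. Those fits gave 0.44 to 0.65 for Csf2ra, 0.14 to 0.34 for Il3ra and −0.44 to 0.068 for Csf1. In neutrophils the value of Csf1r, near 0, turned sign with RLE size factors (−1.61e-05), library totals (−0.052), voom (−0.016), limma-trend on log2(FPKM + 1) with or without a filter (−0.074) or on log2(FPKM + 0.1) (−0.074), and ran from −0.093 to 0.19 with 1 library left out. That of Il3ra turned with library totals (−0.037) and the limma-trend fits (−0.033, −0.036 and −0.033), from −0.058 to 0.17, and that of Kit ran from −0.27 to 0.072. DESeq2 called Csf2rb (0.74) and Csf3r (0.77), 2 of the 9, and with 1 library left out Csf2rb ran from 0.68 to 0.82, Csf3r from 0.68 to 0.90 and the number that rose from 0 to 2. In the 5 of these fits that keep control replicate 1, 0 of all genes passed, so a lost call there says nothing of a single gene. The 9 ratio alternatives of Csf1r to Csf3r kept the direction in each cell type. Of the pathway counts, those of feedback genes that rose in neutrophils ran from 0 to 4 over all settings. In monocytes upper quartile scaling moved the calls over all genes from 1354 higher and 681 lower to 1069 and 1030.

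Same-numbered libraries deviated from their group means with correlations of 0.199, 0.00548 and 0.189 in neutrophils and 0.0651, −0.0267 and 0.0868 in monocytes. Differently numbered ones gave −0.220 to 0.156 and −0.104 to 0.0345. These values do not settle whether the numbers mark pairs, and the main fits did not use them as pairs. With the replicate block, Csf1r in neutrophils was −0.015, 0 of the 9 passed there (Csf2rb adjusted p = 0.15, Csf3r adjusted p = 0.0902), and in monocytes the same 4 passed. It gave 4 proximal signalling and 5 feedback genes that rose in monocytes and, over all genes, 4 calls up in neutrophils in place of 74, where DESeq2 gave 441 up and 106 down. In monocytes the block gave 1551 calls up and 1043 down over all genes, in place of 1354 and 681.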
